A study of Homo sapiens with 4 samples.

Results

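The genes described are those of midkine (MDK) and pleiotrophin (PTN), a small family of secreted growth factors that bind heparin, and of the cell surface proteins known to bind them: the receptor tyrosine phosphatase PTPRZ1, the receptor tyrosine kinase ALK, the endocytic receptor LRP1, nucleolin (NCL) and the syndecans SDC1, SDC3 and SDC4. They were looked up by symbol in the table of gene counts. Of the 9 genes, 6 were found among the 22637 genes of the table, namely MDK, LRP1, NCL, SDC1, SDC3 and SDC4. PTN, PTPRZ1 and ALK were not analysed here, under either symbol or Ensembl identifier, so MDK stands alone as the ligand. The genes were chosen by name with earlier results from these same counts in view, so their levels and ratios in the 4 libraries are given as a description, with no test.

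RNA was sequenced from 4 human prostate cancer cell lines, with 1 library for each. LNCaP is a castration-sensitive, parental line, and LN-OlapR is its olaparib-resistant derivative. C4-2B is a castration-resistant, parental line that descends from LNCaP, and 2B-OlapR is the resistant derivative of C4-2B. Both resistant lines came from long culture of the parental cells in rising doses of olaparib, an inhibitor of the DNA repair enzyme PARP, and were kept in the drug, and each background has 1 such line. For RNA-seq all 4 lines were labelled untreated. They were plated for 48 hours without the selecting drug according to the deposited description, while the methods of the study give a longer time.

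Midkine and pleiotrophin are made in large amounts in the embryo, fall to low levels in most adult tissues, and are often high again in tumors, the prostate among them. They attach to sulfated sugar chains on proteoglycans such as the syndecans and PTPRZ1. From there they engage partner receptors, among them LRP1, a large scavenger receptor that carries its ligands into the cell. Nucleolin works mainly in the nucleolus, where ribosomes are assembled, and a part of it reaches the cell surface and binds midkine.

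The libraries held 19950537 to 26394267 counts. Levels are given as normalized CPM, the CPM value of a gene after scaling with edgeR's TMM factors, which ran from 0.961 to 1.026. Intervals in parentheses are at the 95% level and cover counting error only, since no line was sequenced in replicate, and no p-value is given. All 10 markers of luminal prostate cells were present, with a summed level of 3979 to 7267 normalized CPM. KLK3, the gene of prostate-specific antigen, had 53.1 normalized CPM in LNCaP against 1870 to 2685 in the other libraries, so the LNCaP library stood apart in this gene, and its part in the results for LNCaP was not tested. Stromal markers summed to between 9.70 and 21.6 normalized CPM, with 5 of 8 in the table. FAP was at 0 in LNCaP, LN-OlapR and C4-2B and at 0.531 in 2B-OlapR. Glial markers summed to 32.1 to 63.8, of which MBP alone made 31.6 to 63.3, and GFAP and SOX10 stayed under 1. Endothelial, neuroendocrine and blood markers summed to 12.2 normalized CPM or less in every library.

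MDK was the gene of the set that varied most. It had 1933 counts (LNCaP), 950 (LN-OlapR), 4445 (C4-2B) and 288 (2B-OlapR). Scaled for depth, the levels in the same order were 71.9 (68.8 to 75.2), 40.7 (38.2 to 43.4), 217.2 (210.9 to 223.7) and 13.9 (12.4 to 15.6) normalized CPM. C4-2B was the highest library and 2B-OlapR the lowest, and all neighbours in the order C4-2B, LNCaP, LN-OlapR, 2B-OlapR differed by more than counting error. In each background the resistant line had less MDK mRNA than its parent. The difference was 15.6-fold (13.9 to 17.6) in the C4-2B background, with a log2 ratio of 2B-OlapR to C4-2B of -3.96 (-4.14 to -3.79), and 1.77-fold (1.63 to 1.91) in the LNCaP background, with a log2 ratio of LN-OlapR to LNCaP of -0.82 (-0.93 to -0.71). In the 2B pair MDK was the gene with the rank 41 from the lowest log2 ratio among 15527 genes, and in the LN pair it ranked 1025 of 15373. Fewer cells that make a transcript and less of it per cell cannot be told apart in bulk RNA.

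**Figure D1:**
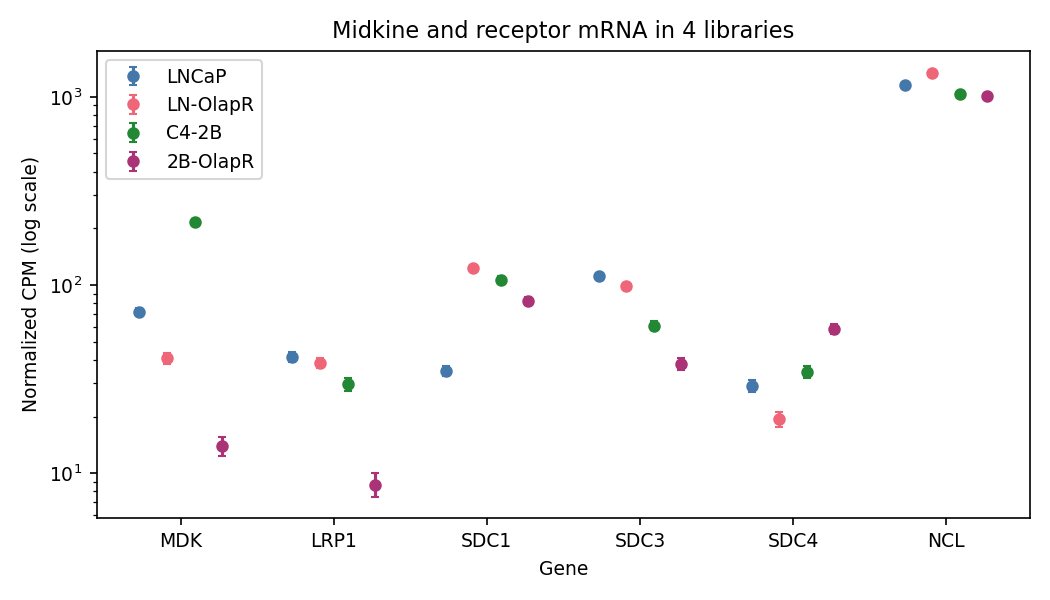
Level of each of the 6 genes in normalized CPM (y axis, log scale) in the 4 libraries, with points for the value and bars for the 95% Wilson counting interval. MDK spans 13.9 to 217.2 normalized CPM, whereas NCL stays between 1004 and 1341.

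The starting level in the parental lines differed too. C4-2B had 3.02-fold (2.86 to 3.19) as much MDK mRNA as LNCaP. 2B-OlapR, by contrast, was below LN-OlapR by 2.93-fold (2.57 to 3.34). These comparisons share their libraries with the resistance pairs and add no separate evidence for them. In the GENCODE release 29 annotation of GRCh38, the build named by the submitters, MDK spans chromosome 11 from 46380756 to 46383837 on the plus strand. Its neighbours within 200 kb, a window chosen after the values were seen, did not share the 2B difference. DGKZ, a diacylglycerol kinase gene, went from 84.5 normalized CPM in C4-2B to 67.7 in 2B-OlapR. AMBRA1, an autophagy gene, had 37.5 and 36.4, respectively. These were the 2 neighbours that averaged 1 normalized CPM or more in that pair, and their log2 ratios were -0.32 and -0.043. Between the parental lines DGKZ, like MDK, was higher in C4-2B, as it had 37.6 normalized CPM in LNCaP. Its log2 ratio of C4-2B to LNCaP was 1.17 (1.05 to 1.28), against 0.23 for AMBRA1.

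LRP1, the endocytic receptor, was lowest in 2B-OlapR and within 1.40-fold among the other libraries. It had 1113 counts (LNCaP), 899 (LN-OlapR), 607 (C4-2B) and 180 (2B-OlapR). In normalized CPM these were 41.4 (39.0 to 43.9), 38.5 (36.1 to 41.1), 29.7 (27.4 to 32.1) and 8.69 (7.51 to 10.1), respectively. 2B-OlapR was below C4-2B by 3.41-fold (2.89 to 4.02), a log2 ratio of -1.77 (-2.01 to -1.53). LNCaP and LN-OlapR, neighbours in the order of levels, did not differ beyond counting error. The log2 ratio of LN-OlapR to LNCaP was -0.10 (-0.23 to 0.024). With scaling by total counts it was -0.19 (-0.31 to -0.061), but that scaling also moved the LN median of all genes from -0.0040 to -0.088. The gene spans chromosome 12 from 57128493 to 57213351 on the plus strand. Of 8 neighbours within 200 kb analyzed in the 2B pair, 2 were at least 2-fold lower in 2B-OlapR, against 5.65% of all genes. The 2 were RDH16 and NDUFA4L2, and the median log2 ratio of all 8 neighbours was -0.64. Exons of STAT6 and of LRP1-AS lie on the opposite strand within LRP1. Whether the counting used strand is not stated. STAT6 stayed between 0.34 and 0.63 normalized CPM, well under LRP1, and LRP1-AS was not analysed here.

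SDC1, the syndecan typical of epithelial cells and plasma cells, showed the reverse order in the LNCaP background. Its counts were 938 (LNCaP), 2865 (LN-OlapR), 2186 (C4-2B) and 1709 (2B-OlapR). The levels were 34.9 normalized CPM (32.7 to 37.2), 122.8 (118.4 to 127.4), 106.8 (102.4 to 111.4) and 82.5 (78.7 to 86.5), so LNCaP was the only low library. LN-OlapR exceeded LNCaP by 3.52-fold (3.27 to 3.79), a log2 ratio of 1.82 (1.71 to 1.92), and C4-2B exceeded LNCaP by 3.06-fold. In the C4-2B background the resistant line was slightly lower, with a log2 ratio of -0.37 (-0.46 to -0.28). The gene spans chromosome 2 from 20200797 to 20225433 on the minus strand, and 0 of its 2 analyzed neighbours within 200 kb passed 2-fold in either resistance pair. SDC1 and KLK3 were both lowest in LNCaP, and the part of that library in the SDC1 result was not tested.

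SDC3, a syndecan best known from the nervous system, went from high to low in the order LNCaP, LN-OlapR, C4-2B, 2B-OlapR. The 4 libraries had 2985, 2292, 1241 and 787 counts, or 111.0 (107.1 to 115.1), 98.3 (94.3 to 102.4), 60.6 (57.4 to 64.1) and 38.0 (35.4 to 40.7) normalized CPM. Libraries next to each other in this order differed by more than counting error. SDC3 spans chromosome 1 from 30869467 to 30908761 on the minus strand. The resistant line was the lower one in both backgrounds, with a log2 ratio of -0.18 (-0.25 to -0.098) in the LN pair and -0.67 (-0.80 to -0.55) in the 2B pair. The difference between the backgrounds was larger than that between resistant and parental cells, as SDC3 was 1.83-fold lower in C4-2B than in LNCaP and 2.59-fold lower in 2B-OlapR than in LN-OlapR.

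SDC4, the widely expressed syndecan of focal adhesions, was the only gene of the set with more mRNA in 2B-OlapR than its parent, C4-2B, had. It had 783 counts (LNCaP), 450 (LN-OlapR), 706 (C4-2B) and 1210 (2B-OlapR). The levels were 29.1 normalized CPM (27.2 to 31.2), 19.3 (17.6 to 21.2), 34.5 (32.0 to 37.1) and 58.4 (55.2 to 61.8). The resistant lines thus held the ends of the range, 2B-OlapR the highest level and LN-OlapR the lowest. Resistant over parental cells, its log2 ratio was 0.76 (0.62 to 0.89) in the 2B pair against -0.59 (-0.76 to -0.43) in the LN pair. SDC4 spans chromosome 20 from 45325288 to 45348424 on the minus strand. Of 5 neighbours within 200 kb that were analyzed in the 2B pair, 2 were at least 2-fold higher in 2B-OlapR. They were SLPI, a secreted protease inhibitor that went from 15.8 to 95.7 normalized CPM, and the readthrough transcript SYS1-DBNDD2, with 10 and 57 counts. SYS1-DBNDD2 had 0.489 normalized CPM in C4-2B and passed the minimum only through 2B-OlapR. The log2 ratios of the remaining neighbours were -0.018 (SYS1), 0.46 (PIGT) and 0.72 (DBNDD2). In the LN pair SLPI was also higher in the resistant line, with a log2 ratio of 1.43 (0.96 to 1.90), whereas SDC4 was lower.

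The balance of the 3 syndecans therefore differed among the lines. Counts were divided by the length of the longest coding transcript, 3291 bases for SDC1, 6392 for SDC3 and 2613 for SDC4, and each level was taken as a share of the sum of the 3. SDC3 made up 44.4% (42.9 to 45.9) of the sum in LNCaP and was the largest share there. SDC1 was the largest in LN-OlapR with 62.1% (60.8 to 63.4), and in C4-2B with 58.9% (57.3 to 60.4). In 2B-OlapR SDC1 made up 47.0% (45.3 to 48.6) and SDC4 41.9% (40.2 to 43.6), against 23.9% (22.5 to 25.5) for SDC4 in C4-2B and 12.3% (11.3 to 13.4) in LN-OlapR. The gap in 2B-OlapR depended on the length used. SDC1 and SDC4 had 25.1 and 22.3 normalized CPM per kb there, but 22.9 and 22.3 per kb of all annotated exons. The share of SDC3 was 25.6% in LN-OlapR and 17.2% in C4-2B, and the smallest, 11.1%, was in 2B-OlapR.

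**Figure D2:**
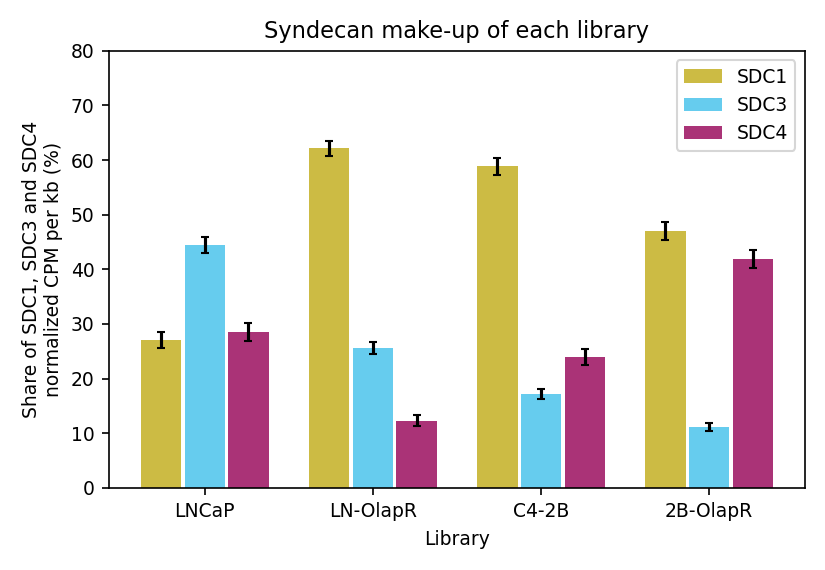
Share of SDC1, SDC3 and SDC4 in their summed normalized CPM per kb of longest coding transcript (y axis, percent) in each library, with bars from 0 and 95% intervals from counting error. SDC3 leads in LNCaP with 44.4%, and SDC4 reaches 41.9% in 2B-OlapR.

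NCL was abundant and nearly level. It had 31202 counts (LNCaP), 31271 (LN-OlapR), 21116 (C4-2B) and 20812 (2B-OlapR), which gave 1161 (1148 to 1174), 1341 (1326 to 1356), 1032 (1018 to 1046) and 1004 (991 to 1018) normalized CPM. The log2 ratio was 0.21 (0.19 to 0.23) in the LN pair and -0.039 (-0.067 to -0.011) in the 2B pair. The intervals are narrow because the counts are high, and the choice of scaling moved the 2B ratio between -0.081 and -0.013. With upper quartile factors its interval, -0.041 to 0.014, included 0. NCL spans chromosome 2 from 231453531 to 231483641 on the minus strand. NCLP1, a pseudogene of NCL that can share reads with it, had 5 to 18 counts.

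On the scale of normalized CPM per kb of longest coding transcript, levels can be compared between genes. NCL was the highest of the 6 in every library, with 249.0 to 332.3. LRP1, whose transcript is the longest, was the lowest in every library, with 0.583 to 2.78. MDK ranked 2 of 6 in LNCaP with 61.7 and in C4-2B with 186.3, 3 in LN-OlapR with 34.9, and 4 in 2B-OlapR with 11.9, where SDC1 (25.1) and SDC4 (22.3) were above it. Per kb of all annotated exons in place of the longest coding transcript, the order of the 6 genes in each library was the same.

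The 6 genes were next counted against all genes analyzed, which had to average 1 normalized CPM or more in the libraries compared. In the 2B pair, 2 of the 6 genes, MDK and LRP1, were at least 2-fold lower in 2B-OlapR, against 5.65% of all 15527 genes, and none (0) was 2-fold higher, against 4.42%. In the LN pair, SDC1 alone passed 2-fold, being higher in LN-OlapR, against 4.64% of 15373 genes, and none was 2-fold lower, against 4.83%. Between the parental lines, MDK and SDC1 were at least 2-fold higher in C4-2B than in LNCaP, against 8.00% of 15580 genes, and none was 2-fold lower, against 7.18%. Between the resistant lines, MDK, LRP1 and SDC3 were at least 2-fold lower in 2B-OlapR than in LN-OlapR, against 9.45% of 15539 genes, and SDC4 was higher, against 8.93%. The median log2 ratio of the 6 genes was -0.52 (2B pair) and -0.14 (LN pair), against -0.00026 and -0.0040 for all genes. As the genes were named with these values known, the counts describe them and are no test.

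**Figure D3:**
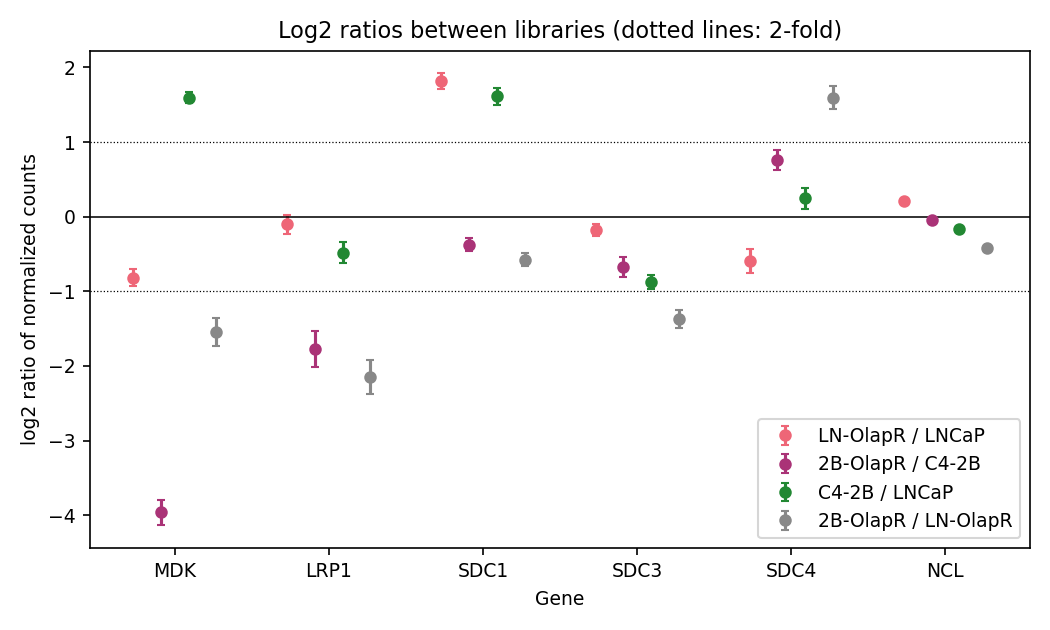
Log2 ratio of normalized counts (y axis) of the 6 genes in the 4 comparisons, with bars for the 95% counting interval and dotted lines at 2-fold. MDK lies at -3.96 in the 2B pair and LRP1 at -1.77, and SDC1 lies at 1.82 in the LN pair.

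MDK and SDC3 were lower in the resistant line of both pairs, while SDC1 and SDC4 differed in opposite directions. NCL was higher in the LN pair, and its direction in the 2B pair was not settled. There its log2 ratio was -0.039, and its interval with upper quartile factors was -0.041 to 0.014. MDK was past 2-fold in the 2B pair only, and the difference between the pairs was not tested, as each rests on 2 libraries.

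**Figure D4:**
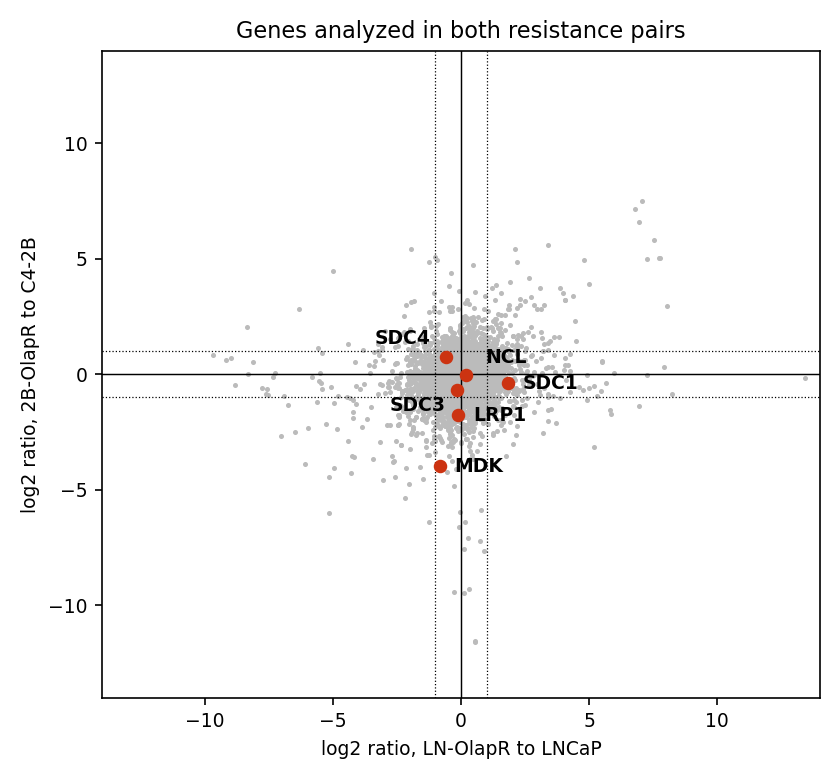
Log2 ratio of resistant to parental cells in the LN pair (x axis) and in the 2B pair (y axis) for 14602 genes analyzed in both (grey) and the 6 genes described (red), with dotted lines at 2-fold. MDK lies at -0.82 and -3.96, and SDC1 at 1.82 and -0.37.

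The promoters of the receptors with the lowest and the highest log2 ratio in the 2B pair, LRP1 and SDC4, are shown to place that contrast beside the sequence. The RefSeq table for GRCh38.p14 had entries for 5 of the 6 genes, without one for MDK. The 250 bases before the annotated start are printed 5′ to 3′ on the gene's strand, with the GC box GGGCGG, which Sp1-type factors bind, and the TATA element TATAA in capitals, each searched on both strands and with overlapping matches counted. LRP1 lies at chr12:57128233-57128482 on the plus strand, and SDC4 at chr20:45348425-45348674 on the minus strand.
LRP1: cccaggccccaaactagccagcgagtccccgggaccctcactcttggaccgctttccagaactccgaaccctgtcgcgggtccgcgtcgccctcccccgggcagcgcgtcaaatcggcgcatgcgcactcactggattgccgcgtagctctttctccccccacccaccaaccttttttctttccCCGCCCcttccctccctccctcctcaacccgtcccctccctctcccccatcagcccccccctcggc
SDC4: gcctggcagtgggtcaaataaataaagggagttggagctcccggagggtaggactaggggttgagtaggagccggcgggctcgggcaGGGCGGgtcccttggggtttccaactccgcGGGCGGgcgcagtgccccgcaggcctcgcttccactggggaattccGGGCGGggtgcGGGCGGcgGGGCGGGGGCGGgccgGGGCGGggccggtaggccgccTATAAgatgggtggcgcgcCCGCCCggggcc
The SDC4 promoter held 8 GC boxes and 1 TATA element, and that of LRP1 held 1 GC box and 0 TATA elements. Among 35116 promoters of the same length, 42.6% held a GC box, 0.584% held at least 8, and 18.9% held the TATA element. The GC content was 73.6% for SDC4 and 67.6% for LRP1, against a median of 58.0%. A match is a description of these letters and not evidence of binding. Matches in the promoters of NCL, SDC1 and SDC3 are not given, and SDC4 was lower in the resistant line of the LN pair. A link between matches and ratios was not tested.

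The remaining genes of the pathway came from lists of known partners. Other binding partners of midkine or pleiotrophin numbered 17, of which 14 were in the table. In the 2B pair, SDC2 and NRP1 were at least 2-fold higher in 2B-OlapR and GPC2 and PTPRB at least 2-fold lower among 14 analyzed, and in the LN pair SDC2 was higher among 13. The medians were -0.12 and -0.15. SDC2, the remaining member of the syndecan family, had 1.86 normalized CPM (LNCaP), 7.07 (LN-OlapR), 2.35 (C4-2B) and 10.4 (2B-OlapR). It was thus higher in both resistant lines, with log2 ratios of 1.92 (1.46 to 2.37) in the LN pair and 2.13 (1.68 to 2.58) in the 2B pair, though its level was low. NRP1, a co-receptor for semaphorins and VEGF, had 81.0, 51.4, 25.3 and 55.5 normalized CPM in the same order of libraries, and its log2 ratio was 1.14 (0.99 to 1.28) in the 2B pair against -0.66 (-0.76 to -0.55) in the LN pair. GPC2, a glypican, had 6.60 normalized CPM in C4-2B against 2.51 in 2B-OlapR. PTPRB, a receptor phosphatase known from endothelium, had 1.76 and 0.772. ITGA6, an integrin chain, was the lowest of this list in the LN pair, with a log2 ratio of -0.67.

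**Figure D5:**
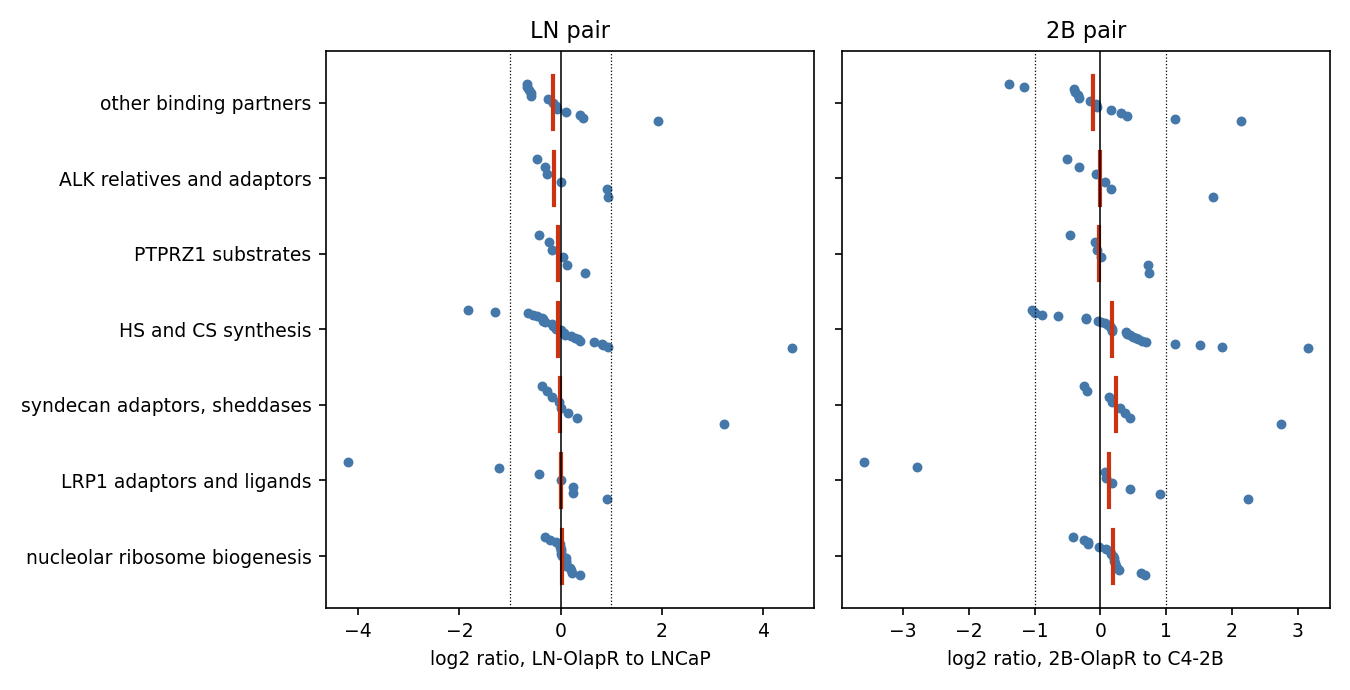
Log2 ratio of resistant to parental cells (x axis) of the genes of 7 pathway lists (rows) in the LN pair and the 2B pair, with 1 point per gene analyzed, a red line at the median of each list and dotted lines at 2-fold. HS and CS stand for heparan and chondroitin sulfate. The medians lie between -0.15 and 0.24, and single genes such as TFPI and SULF2 lie far from them.

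Enzymes that make or modify heparan and chondroitin sulfate, the sugar chains midkine binds, were the longest list, with 29 of 31 genes in the table. In the 2B pair, 4 of 27 were at least 2-fold higher in 2B-OlapR and 2 at least 2-fold lower, against 4.42% and 5.65% of all genes, with a median of 0.17. In the LN pair, 1 of 26 was higher and 2 were lower, against 4.64% and 4.83%, with a median of -0.044. Some of these genes passed the minimum only through the library where they were high. They were HS3ST1 and CHST11 in 2B-OlapR, with 0.635 and 0.977 normalized CPM in C4-2B, and SULF2 in LN-OlapR, with 0.186 in LNCaP. CHST15 passed it only through C4-2B, with 0.724 in 2B-OlapR. With a minimum mean of 10, CHSY1 was the only gene past 2-fold left in the 2B pair. The same all-gene shares apply beside the counts of every list and of neighbouring genes in these pairs. HS3ST1, a heparan sulfate sulfotransferase, had 8.15 normalized CPM (LNCaP), 2.27 (LN-OlapR), 0.635 (C4-2B) and 5.84 (2B-OlapR), so its log2 ratio was 3.15 (2.34 to 3.96) in the 2B pair against -1.83 (-2.26 to -1.40) in the LN pair. HPSE, heparanase, which cuts heparan sulfate, had 0.372, 1.50, 2.10 and 7.63 normalized CPM, and its log2 ratio was 1.85 (1.36 to 2.33) in the 2B pair. CHST11 and DSE, of chondroitin and dermatan sulfate synthesis, were also at least 2-fold higher in 2B-OlapR, with log2 ratios of 1.52 and 1.13. CHSY1, a chondroitin synthase, had 49.7 normalized CPM in C4-2B against 24.6 in 2B-OlapR. CHST15, the sulfotransferase that makes the highly sulfated chondroitin sulfate E, had 31 and 15 counts there. SULF2, an extracellular sulfatase, had 5 counts in LNCaP and 113 in LN-OlapR, a log2 ratio of 4.57 (3.34 to 5.81), and CHST3, a chondroitin sulfotransferase, had 799 and 280 counts, a log2 ratio of -1.31 (-1.50 to -1.11).

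Partners of LRP1 held some of the widest differences. Of 14 listed genes, 11 were in the table. In the 2B pair, THBS1 was at least 2-fold higher and TFPI and GULP1 at least 2-fold lower among 8 analyzed, and in the LN pair TFPI and THBS1 were lower among 7. TFPI, the inhibitor of the tissue factor pathway and an LRP1 ligand, had 157.5 normalized CPM (LNCaP), 8.57 (LN-OlapR), 31.8 (C4-2B) and 2.61 (2B-OlapR). Like MDK it was lower in both resistant lines, with log2 ratios of -4.20 (-4.40 to -3.99) in the LN pair and -3.60 (-4.00 to -3.20) in the 2B pair. GULP1, an adaptor that binds the tail of LRP1, had 40.1, 47.5, 89.5 and 13.0 normalized CPM, with a log2 ratio of -2.78 (-2.97 to -2.60) in the 2B pair against 0.24 (0.12 to 0.36) in the LN pair. THBS1, thrombospondin, another LRP1 ligand, had 1.64, 0.686, 46.7 and 221.4 normalized CPM. SHC1, an adaptor of LRP1 and of ALK, was the highest of the list in the LN pair, with a log2 ratio of 0.92. The median of the list was 0.13 in the 2B pair against 0.012 in the LN pair.

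Syndecan adaptors and shedding proteases had 10 of 12 genes in the table. TIAM1, a Rac exchange factor that binds syndecan tails, had 5 counts in C4-2B against 37 in 2B-OlapR. It had 5 in LNCaP and 29 in LN-OlapR, a log2 ratio of 2.63 (1.31 to 3.94), but fell below the minimum mean in the LN pair. SDCBP2, a syntenin, had 6 counts in LNCaP and 52 in LN-OlapR. TIAM1 in the 2B pair and SDCBP2 in the LN pair passed the minimum only through the resistant library. TIAM1 had 0.244 normalized CPM in C4-2B, and SDCBP2 had 0.223 in LNCaP. No other gene of this list passed 2-fold in either pair among 8 analyzed in each. The lowest genes were ADAM17 in the 2B pair and PRKCA in the LN pair, with log2 ratios of -0.25 and -0.37. The medians were 0.24 and -0.0074, respectively.

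Next came genes that act with ALK or below PTPRZ1. Of the ALK list, 6 of 9 genes were in the table and analyzed. IRS1, an adaptor of receptor tyrosine kinases, had 5.10 normalized CPM (LNCaP), 9.82 (LN-OlapR), 11.8 (C4-2B) and 38.7 (2B-OlapR). It was the 1 gene of that list past 2-fold, with a log2 ratio of 1.71 (1.50 to 1.92) in the 2B pair, while in the LN pair it had 0.94 (0.64 to 1.25). The lowest were PTPN11 in the 2B pair, with -0.51, and FRS2 in the LN pair, with -0.47. The medians of the list were 0.0011 and -0.13. Among the 6 PTPRZ1 substrates 0 passed 2-fold in either pair, and the medians were -0.022 and -0.063. They ranged from -0.47 for PXN to 0.73 for ARHGAP35 in the 2B pair and from -0.42 for CTNNB1 to 0.49 for FYN in the LN pair.

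The nucleolar genes that work with NCL in making ribosomes were all in the table, 17 of 17, and 0 passed 2-fold in either pair. Of these, 12 had a log2 ratio above 0 in the 2B pair, as had 11 in the LN pair, or 70.6% and 64.7% of the list, against 50.0% and 49.6% of all genes. The medians were 0.20 and 0.029, respectively. The latter was -0.055 with scaling by total counts, which also moved the LN median of all genes from -0.0040 to -0.088. NCL itself had -0.039 and 0.21. The ratios ran from -0.42 for NOP58 to 0.67 for POLR1B in the 2B pair and from -0.30 for NOP2 to 0.37 for NOLC1 in the LN pair. NPM1, nucleophosmin, which is also reported to bind midkine, had 698.7 normalized CPM (LNCaP), 747.4 (LN-OlapR), 712.2 (C4-2B) and 796.5 (2B-OlapR).

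The genes whose levels followed MDK and LRP1 most closely were found by the distance between log2 profiles over the 4 libraries, each centred on its own mean, among 9884 genes that averaged 10 normalized CPM or more. For MDK the nearest were JDP2, a repressor in the AP-1 family, GPRIN2 and GULP1, at distances of 1.13, 1.14 and 1.18. JDP2 had 17.7 normalized CPM (LNCaP), 8.10 (LN-OlapR), 19.3 (C4-2B) and 2.46 (2B-OlapR), and GPRIN2 had 23.2, 17.4, 102.4 and 13.3. No gene compared was thus closer to the MDK profile than a distance of 1.13. LRP1, the receptor with the widest range, had closer matches, with distances of 0.14 for NETO1, 0.17 for GLIPR2 and 0.24 for ZNF772. NETO1, a transmembrane partner of kainate receptors, had 153.8, 159.1, 109.0 and 35.6 normalized CPM in the same order. With 4 libraries such likeness is a description only.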

How the data were processed

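Total RNA of 4 cell lines, 1 library each, was made into stranded mRNA libraries from 100 ng, and the authors deposited estimated counts per gene, not scaled between libraries. The submitters' processing notes name STAR, Partek and the build GRCh38 (hg38), without versions or roles, and the annotation is not given in the sources used here. Each of the 22637 genes sums to at least 10.0 over the libraries. As the values need not be whole, they were rounded to whole counts. Totals ranged from 19950537 to 26394267.

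edgeR 4.0.16 (R 4.3.3) gave the TMM factors. The rest was done in Python 3.11.15 with numpy 2.4.6, pandas 2.3.3 and SciPy 1.17.1. Log2 ratios used a pseudocount of 0.5 counts, and genes that averaged 1 normalized CPM or more in the libraries compared were analyzed. With 1 library per line no model was fitted. Intervals of log2 ratios are normal intervals from the 2 counts, those of levels are Wilson intervals, and those of syndecan shares are normal on the logit scale. All cover counting error only. The ratio and its interval were run on simulated Poisson counts, the kind of count that the interval assumes. Those counts hold no spread between cultures and no error of scaling, so the run checks the calculation only. The 9 genes, the lists, the naming rule and the alternatives were chosen with earlier results of these data known. The rule names all 9 genes, list genes at least 2-fold different in a resistance pair with an interval without 0, the highest and lowest gene of each list, and the 3 nearest profiles to MDK and to the widest-ranging receptor. KLK3, MBP, GFAP, SOX10, FAP, NPM1, NCLP1, LRP1-AS and the neighbours of MDK, LRP1 and SDC4 fall outside the rule. Alternatives were scaling by total counts, DESeq2 1.42.0 size factors and upper quartile factors, a pseudocount of 2, and a minimum mean of 10 or none. Transcript lengths and positions are from GENCODE release 29, whose gene versions are older than those of the table.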

Additional observations from a re-analysis of the deposited data

Results flagged for a closer look

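SDC1, SDC4 and NCL differed from the parental line in opposite directions in the 2 resistance pairs, each by more than counting error with TMM scaling. The log2 ratio of SDC1 was 1.82 in the LN pair and -0.37 in the 2B pair, that of SDC4 was -0.59 and 0.76, and that of NCL was 0.21 and -0.039. With upper quartile factors the interval of NCL in the 2B pair, -0.041 to 0.014, included 0. The difference between the pairs was not tested, since each pair has 1 library per line.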

How the results depend on the processing

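The 6 genes kept the direction of their log2 ratios in all 96 combinations of gene, comparison and alternative scaling or pseudocount, and 6 of these moved by more than the counting interval, 5 for NCL and 1 for SDC3 in the LN pair, -0.26 with scaling by total counts. The log2 ratio of MDK ranged from -4.01 to -3.94 in the 2B pair, from -0.90 to -0.81 in the LN pair, from 1.59 to 1.62 between the parental lines and from -1.55 to -1.50 between the resistant lines. The numbers of the 6 genes past 2-fold, 1 in the LN pair, 2 in the 2B pair, 2 between the parental and 4 between the resistant lines, were the same under every alternative. Over all genes the numbers past 2-fold did depend on the filter: without a minimum they were 4805 (2B pair), 4506 (LN pair), 5817 (parental lines) and 6449 (resistant lines), against 1564, 1455, 2364 and 2856, and with a minimum mean of 10 they were 419, 388, 772 and 1040. List counts depended on it as well, and 41 of the list and all-gene values moved in all. With a minimum mean of 10 the LN count of LRP1 partners went from 2 to 1, the 2B count of heparan and chondroitin sulfate enzymes from 6 to 1 and that of other binding partners from 4 to 1, and without a minimum the 2B count of LRP1 partners went from 3 to 5. Some list medians close to 0 changed sign, with scaling by total counts to -0.072 for LRP1 partners and -0.055 for nucleolar genes in the LN pair. That scaling also moved the LN median of all genes, from -0.0040 to -0.088. No replicate could be left out, and no replicate numbers pair the libraries, since each cell line has 1. A fit of both resistant against both parental lines with the background as a block, which leaves 1 residual degree of freedom, was not run.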
